A study of Mus musculus with 6 samples.

Results

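The transcripts described here are 10 genes of the transforming growth factor beta (TGF-β) pathway, taken by symbol from the 23935 symbols of the expression tables: the ligands Tgfb1, Tgfb2 and Tgfb3, the receptors Tgfbr1 and Tgfbr2, the signal transducers Smad2, Smad3 and Smad4, the inhibitory Smad7, and the TGF-β-induced matrix gene Tgfbi. RNA-seq was performed on bone marrow-derived macrophages (BMDMs), which are macrophages grown from mouse marrow cells with the growth factor M-CSF, here over 7 days. PKM2FL/FL mice carry the floxed allele of PKM2, an isoform of the glycolytic enzyme pyruvate kinase, and PKM2ΔMAC mice are their littermates that carry the same allele plus LysM-Cre, a recombinase driven from the myeloid Lyz2 locus. All 6 cultures (3 mice of each genotype, 1 library a mouse) are labelled as primed for 16 h with 10 ng/mL of the bacterial product LPS and 25 ng/mL IFN-γ, so no unprimed library was compared. The age of these mice is not given in the sources used here. As deletion follows LysM-Cre, cells of a culture that never express Lyz2 would keep PKM2.

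TGF-β is made as an inactive precursor that is held in a latent complex and is released by integrins, thrombospondin or proteases. The active dimer binds the type II receptor TGFBR2, which phosphorylates the type I receptor TGFBR1, which in turn phosphorylates SMAD2 and SMAD3. These join SMAD4, enter the nucleus and switch genes, among them Smad7, whose product blocks the receptor. In macrophages the pathway is known for damping inflammatory activation and for tissue repair and fibrosis. Receptor and SMAD activity is set by phosphorylation, which mRNA levels do not measure.

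Total counts of the libraries ranged from 49957449 to 54524651. Pkm, which carries the floxed exon, was at 1706 ± 8.08 CPM (counts-per-million units, scaled for library composition; SD, n = 3) in PKM2FL/FL and 1068 ± 125 in PKM2ΔMAC (log2 fold change -0.68, edgeR adjusted p = 0.00913). Lyz2 was at 17825 and 28.4 CPM (-9.29, edgeR adjusted p = 8.53e-09). The genotypes thus differed in LysM-Cre and Lyz2 as well as in Pkm, and the parts of these cannot be told apart in this design. The Pkm call was lost on the TPM scale with limma-trend (log2 fold change -0.61, adjusted p = 0.112 to 0.183) and without any of the 3 PKM2FL/FL libraries (-0.67 to -0.68, edgeR adjusted p = 0.0754 to 0.0993). Pkm counts are of the whole gene, which the paper says encodes PKM1 and PKM2, so they do not measure PKM2 alone. The macrophage marker Csf1r, the M-CSF receptor, was at 3284 ± 139 and 3259 ± 438 CPM, and the 8 macrophage markers summed to 7087 to 7307 CPM in PKM2FL/FL and 7138 to 7964 in PKM2ΔMAC. Of these 8, 1 was called, beside 0.412% of all genes tested: Itgam, the CD11b integrin subunit, was higher in PKM2ΔMAC (196 against 264 CPM, log2 fold change 0.43, edgeR adjusted p = 0.00272). Adgre1, the gene of F4/80, was at 1688 ± 32.7 against 2020 ± 189 CPM (0.26, adjusted p = 0.236). Summed CPM of 9 fibroblast or stromal markers was 6058 to 6649 in PKM2FL/FL and 5780 to 7324 in PKM2ΔMAC, with Col1a1 at 2170 and 2563 CPM, so levels below are those of the whole culture. In such bulk samples fewer cells of a type and less RNA per cell cannot be told apart. The summed neutrophil markers ranged from 20.3 to 48.8 CPM in PKM2FL/FL and from 90.1 to 170 CPM in PKM2ΔMAC (8 of 8 higher on average). The summed cell cycle markers ranged from 326 to 349 CPM and from 393 to 672 CPM (10 of 10 higher), the 672 being PKM2ΔMAC mouse 2. Their part in the results was not tested. Of 8 genes that LPS and IFN-γ are known to induce, chosen after the values were seen, 6 were below 6 CPM in every library, among them Nos2 at 0.04 to 0.49 CPM and Il1b at 1.78 to 2.95 CPM. The other 2 were Tnf at 11.0 to 19.5 CPM and Gbp2 at 18.7 to 27.1 CPM. With no unprimed library, these levels cannot be set against a baseline, and whether the priming label holds was not tested.

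The 150 bases upstream of the RefSeq start are shown for the 2 receptors and for the ligands with the highest and the lowest level, Tgfb1 and Tgfb2. Of the 10 genes 6 had a promoter entry (RefSeq, GRCm38.p6). Letters run 5′ to 3′ on the gene's strand, and capitals mark the GC box (letters GGGCGG), the TATA box (letters TATAAA) and the E-box (letters CACGTG) on either strand. The window of Tgfb1 is chr7:25686852-25687001 (+), that of Tgfb2 chr1:186705990-186706139 (-), that of Tgfbr1 chr4:47353072-47353221 (+) and that of Tgfbr2 chr9:116175364-116175513 (-). The Tgfb2 window touches an annotated exon, and those of Tgfb1, Tgfbr1 and Tgfbr2 do not.

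Tgfb1: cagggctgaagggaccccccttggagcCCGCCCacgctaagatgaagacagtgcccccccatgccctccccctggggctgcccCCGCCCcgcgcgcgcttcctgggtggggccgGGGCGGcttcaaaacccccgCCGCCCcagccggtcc

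Tgfb2: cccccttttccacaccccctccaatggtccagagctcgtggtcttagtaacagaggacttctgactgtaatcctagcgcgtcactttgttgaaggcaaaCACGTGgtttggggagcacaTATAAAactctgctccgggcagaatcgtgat

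Tgfbr1: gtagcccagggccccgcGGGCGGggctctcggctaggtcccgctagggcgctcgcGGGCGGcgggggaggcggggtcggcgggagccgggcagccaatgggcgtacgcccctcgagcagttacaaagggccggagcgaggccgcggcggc

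Tgfbr2: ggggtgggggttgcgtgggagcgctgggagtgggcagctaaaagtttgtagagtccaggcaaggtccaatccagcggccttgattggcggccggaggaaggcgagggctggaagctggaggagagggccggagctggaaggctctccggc

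The Tgfb1 window is 76.0% G or C and holds 4 GC boxes, but neither a TATA box nor an E-box. The Tgfb2 window is 51.3% G or C, with TATAAA starting 31 bases and CACGTG 51 bases before the start, and no GC box. The Tgfbr1 window (79.3%) holds 2 GC boxes, and the Tgfbr2 window (66.0%) holds none of these 3 motifs. The letters CCAAT, in 24.5% of all windows and not capitalised here, occur 2 times in the Tgfbr2 window and 1 time each in those of Tgfbr1 and Tgfb2. Among 32851 windows of the same length, 28.6% hold GGGCGG, 7.57% TATAAA and 4.3% CACGTG, and the median is 54.0% G or C. The SMAD-binding letters CAGAC, present in 27.7% of windows, were in none of these 4 nor in the Smad3 window, and in the Tgfbi window once, 85 bases before the start. A match is a description of the letters, not a bound site.

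Levels of different genes were compared per length, in transcripts-per-million units (TPM), over all 6 libraries. Tgfbi (mean 301, range 260 to 354 TPM) and Tgfb1 (296, range 278 to 309 TPM) were highest and overlapped each other. Tgfbr2 (179, range 159 to 187 TPM) and Tgfbr1 (150, range 141 to 160 TPM) followed and also overlapped. Then came Smad4 at 84.9 TPM (81.2 to 89.5) and Tgfb3 at 61.5 TPM (45.3 to 78.1), each set apart from its neighbours in every library. Smad3 was at 33.1 TPM (31.7 to 35.4), above Smad2 at 28.9 TPM (27.3 to 30.9). Tgfb2 at 24.3 TPM (18.5 to 30.6) overlapped Smad2 above it and Smad7 at 15.8 TPM (13.3 to 20.8) below it. The level of Tgfb1 was thus 12.1 times that of Tgfb2 and 4.80 times that of Tgfb3. All 10 genes were expressed: Tgfbi stood at the 98.0th percentile of the table and Smad7 at the 68.6th.

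**Figure D1:**
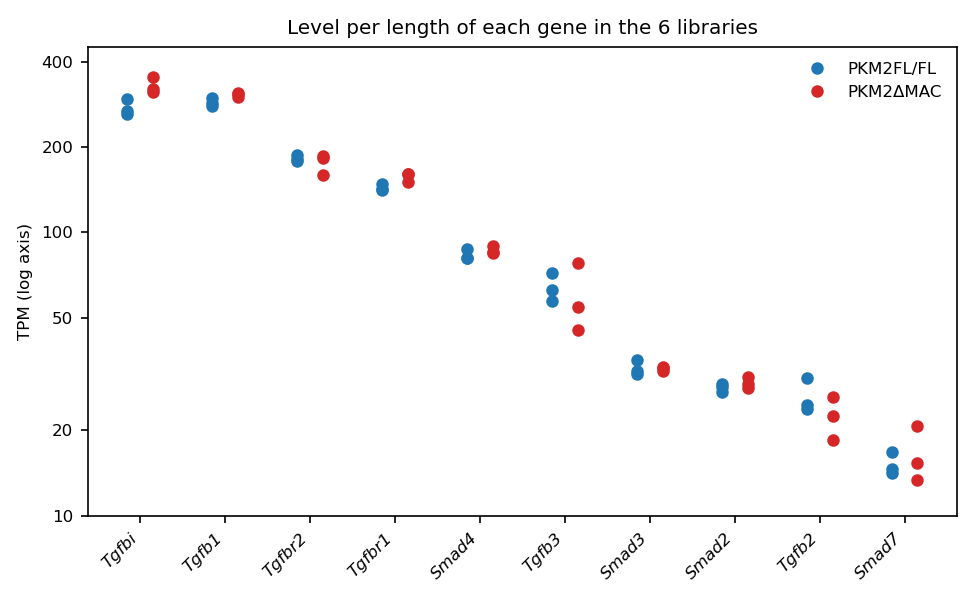
Level of each of the 10 genes in TPM (log axis), ordered by the mean over 6 libraries, with 1 point a library and colours for genotype. Tgfbi and Tgfb1 lie highest at about 301 and 296 TPM, and Smad7 lowest at 15.8 TPM.

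All 10 genes passed the filter on low counts, with 882 to 23002 counts per library. None was called in the genotype comparison: 0 of 10 had an adjusted p under 0.05 in edgeR, against 0.412% of the 16516 genes tested. DESeq2 and limma-trend on log2(TPM + 1) also called 0 of 10, against 1.54% of 18825 and 0.281% of 14582 genes with an adjusted p. At an unadjusted p under 0.05 in edgeR there was 1 of 10 (Tgfbi, higher), against 9.83% of all genes. The fitted value was above 0 for 4 genes and below 0 for 6, with a median log2 fold change of -0.02 beside -0.00021 for all genes tested. The CPM of the genotypes did not overlap for 1 of 10, again Tgfbi, against 17.2% of all genes. Exact permutation tests with 3 libraries on each side cannot give a two-sided p below 0.10.

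**Figure D2:**
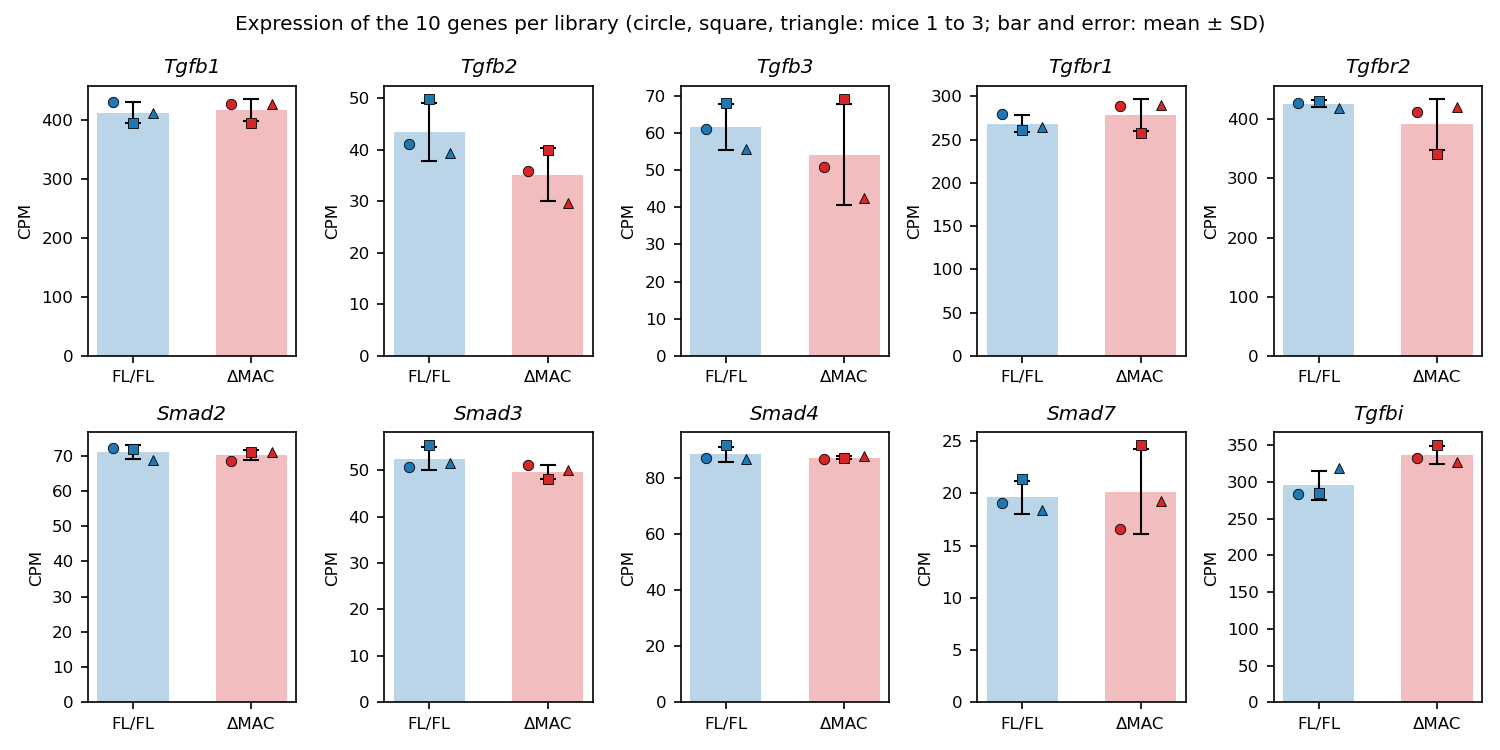
CPM of the 10 genes in each library, from 0. Circles, squares and triangles are mice 1, 2 and 3 of a genotype (not treated as pairs), bars are means and error bars SD (n = 3). The genotypes are separate only for Tgfbi, at 283 to 318 CPM in PKM2FL/FL and 327 to 350 CPM in PKM2ΔMAC.

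Among the ligands, Tgfb1, the main isoform of immune cells (chr7:25687002-25705077, plus strand, GRCm38), was at 431, 395 and 413 CPM in PKM2FL/FL mice 1 to 3 and at 429, 396 and 429 CPM in PKM2ΔMAC mice 1 to 3. The genotypes overlapped almost wholly. edgeR gave 0.02 as the log2 fold change, with an SE of 0.05 (adjusted p = 0.950, exact permutation p = 0.90) and a 95% interval of 0.934 to 1.10 for the fold. In TPM the same libraries read 296, 278 and 285 against 309, 300 and 306, which do not overlap. On that scale, however, the median log2 fold change of all genes was 0.06 above 0, and 22.1% of the genes tested did not overlap (3137 higher and 520 lower in PKM2ΔMAC). Lyz2 was at 47420 TPM in PKM2FL/FL and 79.4 TPM in PKM2ΔMAC, and its part in this shift was not tested. The log2(TPM + 1) difference of Tgfb1 was not called by limma-trend either.

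Tgfb2, an isoform best known from development and mesenchymal cells (chr1:186622792-186705989, minus strand), was at 41.1, 49.9 and 39.4 CPM in PKM2FL/FL and at 35.8, 39.9 and 29.7 CPM in PKM2ΔMAC. PKM2ΔMAC mice 1 and 3 were below every control and mouse 2 was within their range. The fitted log2 fold change was -0.30 (SE 0.13, 95% interval -0.62 to 0.01, edgeR adjusted p = 0.524, exact permutation p = 0.20). With a library left out it ranged from -0.40 without PKM2ΔMAC mouse 2 (edgeR adjusted p = 0.292) to -0.19 without PKM2FL/FL mouse 2. It was -0.37 without PKM2FL/FL mouse 3 and -0.20 without PKM2ΔMAC mouse 3. With a block for mice of the same number it was -0.31 (edgeR adjusted p = 0.0807).

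Tgfb3, also a mesenchymal isoform (chr12:86056745-86079041, minus strand), was at 61.0, 68.2 and 55.6 CPM against 50.8, 69.2 and 42.6 CPM. PKM2ΔMAC mouse 2 was the highest of the 6 libraries, and mice 1 and 3 were the lowest. A log2 fold change of -0.18 was fitted (SE 0.19, 95% interval -0.68 to 0.31, edgeR adjusted p = 0.824), which was -0.40 without mouse 2 (adjusted p = 0.224), -0.04 without mouse 3 and -0.11 without PKM2FL/FL mouse 2. Exons of Tgfb3 overlap those of Gm37804 and Gm48008, which had at most 8 counts in any library.

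Tgfb1 made up 77.3%, 73.2% and 77.9% of the summed TPM of the 3 ligands in PKM2FL/FL, and 80.0%, 74.2% and 82.8% in PKM2ΔMAC. The means of 76.1 ± 2.57% and 79.0 ± 4.40% (SD, n = 3) overlapped (exact permutation p = 0.40). Tgfb3 stayed above Tgfb2 in every library, with a TPM ratio of 2.34 to 2.54 in PKM2FL/FL, 2.43 and 2.45 in PKM2ΔMAC mice 1 and 3, and 2.97 in mouse 2.

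Of the receptors, Tgfbr1, the type I kinase that phosphorylates the SMADs (chr4:47353222-47414931, plus strand), was at 279, 261 and 265 CPM in PKM2FL/FL and at 288, 257 and 290 CPM in PKM2ΔMAC. PKM2ΔMAC mice 1 and 3 were above and mouse 2 below all controls. Its log2 fold change was 0.05 (SE 0.06, 95% interval -0.07 to 0.18, edgeR adjusted p = 0.818). It was 0.11 without PKM2ΔMAC mouse 2 (adjusted p = 0.247), 0.02 without mouse 3, 0.03 without mouse 1, and 0.08 and 0.03 without PKM2FL/FL mice 1 and 2. In TPM the genotypes did not overlap (141 to 148 against 150 to 160), with the same shift of all genes on that scale.

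Tgfbr2, the ligand-binding type II kinase (chr9:116084293-116175360, minus strand), was at 428, 432 and 419 CPM in PKM2FL/FL and at 412, 342 and 421 CPM in PKM2ΔMAC. The controls lay close together, and PKM2ΔMAC mouse 2 alone was far below them. Its log2 fold change was -0.12 (SE 0.08, 95% interval -0.30 to 0.05, edgeR adjusted p = 0.651), and -0.03 without mouse 2.

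The ratio of the receptors does not depend on how a library is scaled. Tgfbr2 over Tgfbr1 in TPM was 1.22, 1.32 and 1.26 in PKM2FL/FL and 1.14, 1.06 and 1.16 in PKM2ΔMAC. All 3 PKM2ΔMAC libraries were below all 3 controls, with means of 1.27 ± 0.0484 and 1.12 ± 0.0514 (SD, n = 3). The exact permutation p was 0.10, the smallest this design can give, and 0.40 after Benjamini-Hochberg adjustment over 4 ratios. The difference of -0.149 ranged from -0.172 to -0.120 with each library left out. The ratios were chosen with the data known. The other ratio, Smad3 over Smad2, was 1.17 ± 0.0568 in PKM2FL/FL and 1.12 ± 0.0560 in PKM2ΔMAC (exact permutation p = 0.30).

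**Figure D3:**
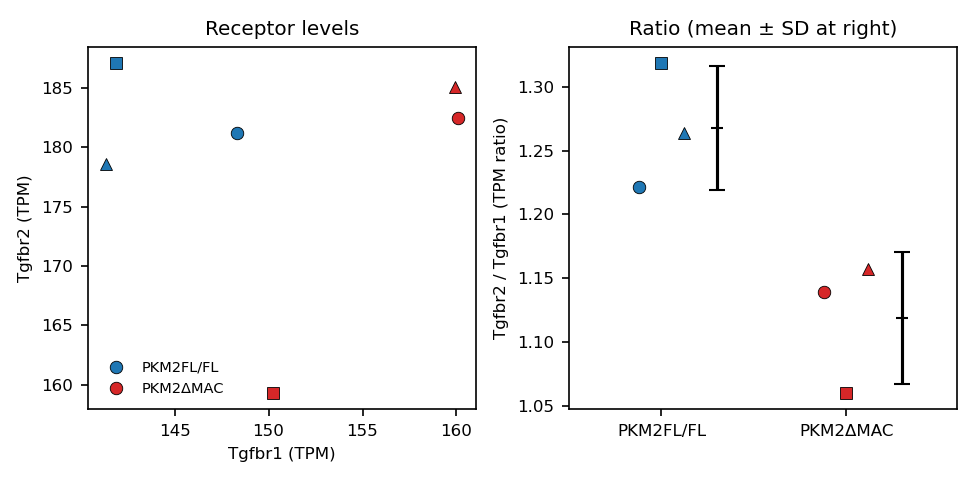
Left, Tgfbr2 against Tgfbr1 in TPM for each library (axes do not start at 0). Right, their ratio per library with mean ± SD (n = 3), at 1.22 to 1.32 in PKM2FL/FL and 1.06 to 1.16 in PKM2ΔMAC. Circles, squares and triangles are mice 1, 2 and 3.

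The transducing SMADs had the narrowest intervals. Smad2, a receptor-regulated SMAD (chr18:76241580-76310963, plus strand), was at 72.3, 72.0 and 68.8 CPM against 68.5, 71.2 and 71.0 CPM. Its log2 fold change was -0.02 (SE 0.04, 95% interval -0.11 to 0.08, edgeR adjusted p = 0.937). Smad4, the common partner (chr18:73639009-73703780, minus strand), was at 86.9, 91.5 and 86.6 CPM against 86.7, 87.1 and 87.7 CPM, and its log2 fold change was -0.02 (SE 0.04, 95% interval -0.11 to 0.07, edgeR adjusted p = 0.914). For both, the genotypes overlapped. The sign of both values depends on the scale: on log2(TPM + 1) they were at 0.055 and 0.052, below the 0.063 of the median gene.

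Smad3, the receptor-regulated SMAD that binds DNA directly (chr9:63646767-63757994, minus strand), was at 50.6, 55.3 and 51.6 CPM in PKM2FL/FL and at 51.1, 48.0 and 49.9 CPM in PKM2ΔMAC. The libraries overlapped through PKM2ΔMAC mouse 1. edgeR gave -0.08 as the log2 fold change (SE 0.05, 95% interval -0.19 to 0.03, adjusted p = 0.655). It was -0.04 without PKM2FL/FL mouse 2, and -0.0066 on log2(TPM + 1) with limma-trend. Smad3 lies 3.97 Mb from Pkm on the same chromosome.

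Smad7, the inhibitory SMAD that is itself a TGF-β target (chr18:75367529-75395935, plus strand), was at 19.0, 21.4 and 18.4 CPM in PKM2FL/FL and at 16.6, 24.6 and 19.2 CPM in PKM2ΔMAC. PKM2ΔMAC mouse 1 was the lowest and mouse 2 the highest of all 6. The log2 fold change of 0.04 (SE 0.14, 95% interval -0.30 to 0.37, edgeR adjusted p = 0.959) was -0.13 without mouse 2.

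Tgfbi, which encodes a secreted matrix protein named for its induction by TGF-β (chr13:56609523-56639562, plus strand), was at 283, 284 and 318 CPM in PKM2FL/FL and at 332, 350 and 327 CPM in PKM2ΔMAC. Every PKM2ΔMAC library was above every control, and the nearest to each other were control mouse 3 and PKM2ΔMAC mouse 3. On average it was at 295 ± 19.9 and 336 ± 11.9 CPM (SD, n = 3), a log2 fold change of 0.19 (SE 0.06, 95% interval 0.06 to 0.31). The unadjusted edgeR p was 0.00851 and the adjusted p 0.316, and the exact permutation p was 0.10. Higher values were found in 3 of 3 PKM2ΔMAC libraries, but the difference did not pass the correction over all genes.

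Variation between mice was uneven across the 10 genes. The coefficient of variation was larger in PKM2ΔMAC than in PKM2FL/FL for 6 of 10, and most so for Tgfbr2 (11.0% against 1.46%), Tgfb3 (25.2% against 10.2%) and Smad7 (20.2% against 8.07%). PKM2ΔMAC mouse 2 was the lowest of its group for 4 genes and the highest for 5. Relative to the PKM2FL/FL mean it was at -0.32 for Tgfbr2, 0.33 for Smad7 and 0.17 for Tgfb3 on the log2 scale, whereas PKM2ΔMAC mice 1 and 3 were at -0.28 and -0.53 for Tgfb3. This library also had the highest cell cycle sum, and the lowest stromal sum of the 6 (5780 CPM).

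A further 120 pathway genes in 7 lists were examined, of which 114 were tested. Those too low to test included Itgb6, Acvr1c, Bmpr1b, Foxh1 and Sall1. By edgeR 0 of 114 were called. At an unadjusted p under 0.05 there were 19 (10 higher and 9 lower), beside 9.83% of all genes, and 0.412% of all genes were called by edgeR. DESeq2 called 3, beside 1.54% of all genes, and limma-trend 0, beside 0.281%. The CPM of the genotypes did not overlap for 28 (15 higher and 13 lower), beside 17.2% of all genes. The median log2 fold change was 0.01, with 60 genes above 0 and 54 below.

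**Figure D4:**
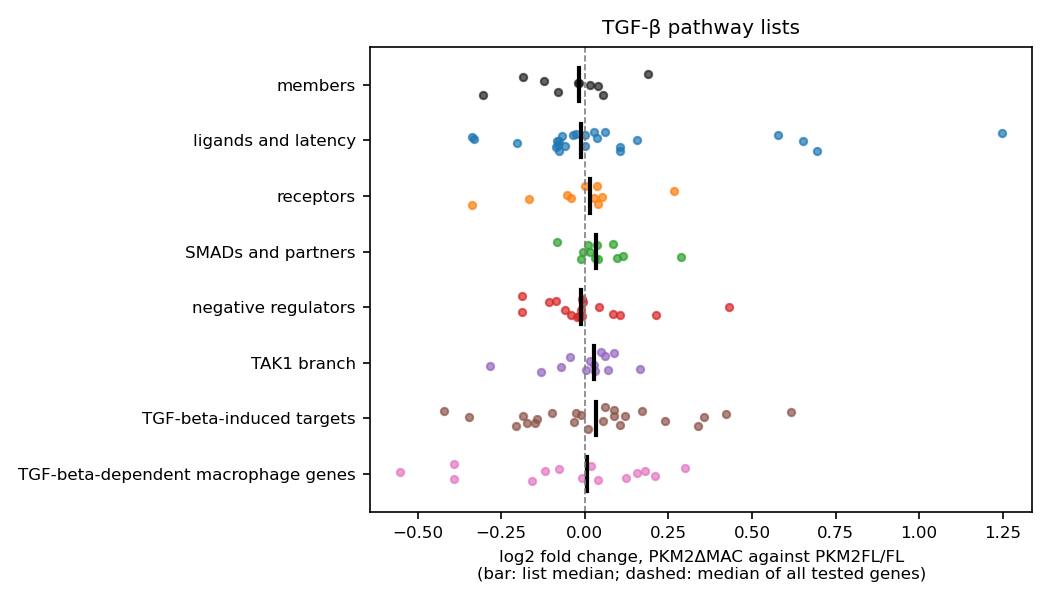
Log2 fold change of each tested gene (points) in the 10 genes and the 7 pathway lists, with list medians as bars and the median of all tested genes as a dashed line. List medians lie between -0.02 and 0.03.

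In ligands and latency (24 tested, 12 above and 12 below 0, 1 higher and 1 lower at an unadjusted p under 0.05), Gdf15, a stress-induced distant family member, was at 18.3, 20.8 and 17.3 CPM against 12.9, 15.4 and 16.3 CPM (log2 fold change -0.34, edgeR adjusted p = 0.348). Itgav, the αv integrin subunit that releases latent TGF-β, was at 293 ± 8.82 against 326 ± 24.0 CPM (0.16, adjusted p = 0.416). Ltbp4, a latent TGF-β binding protein, was at 0.917 ± 0.112 against 1.37 ± 0.324 CPM (0.58, adjusted p = 0.516). Thbs1, the activator thrombospondin-1, had the highest level of the list at 1341 TPM and a log2 fold change of -0.08 (adjusted p = 0.880).

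In receptors (10 tested, 5 above and 5 below 0, 2 lower at an unadjusted p under 0.05), Eng, the co-receptor endoglin, was at 77.8, 80.1 and 67.0 CPM against 58.4, 63.7 and 55.7 CPM. All 3 PKM2ΔMAC libraries were below the controls, with a log2 fold change of -0.34 (SE 0.08) and an edgeR adjusted p of 0.199. DESeq2 called it (adjusted p = 0.0183). Acvrl1, the type I receptor ALK1 that endoglin works with, was at 38.1 ± 2.24 against 33.9 ± 1.75 CPM (-0.17, edgeR adjusted p = 0.422). Bambi, a decoy receptor without kinase, was at 7.74 ± 0.138 against 9.32 ± 1.57 CPM (0.27, adjusted p = 0.539; 0.12 without PKM2ΔMAC mouse 3). The endothelial markers, of cells that also express Eng and Acvrl1, summed to 31.3 to 36.5 CPM in PKM2FL/FL and 18.1 to 48.4 CPM in PKM2ΔMAC.

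In SMADs and partners (12 tested, 9 above and 3 below 0, 2 higher at an unadjusted p under 0.05), Smad9, a SMAD of the BMP branch, was at 5.74 ± 0.412 against 7.01 ± 0.665 CPM (0.29, edgeR adjusted p = 0.471). Sp1 (0.10, adjusted p = 0.494) and the coactivator Crebbp (0.11, adjusted p = 0.508) had smaller values, and Ep300, highest of the list at 72.4 TPM, was at -0.01.

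Of 17 negative regulators 5 were above and 12 below 0, and 3 were lower at an unadjusted p under 0.05. The ubiquitin ligase Wwp1, highest of the list at 276 TPM, was at 528 ± 41.9 against 463 ± 11.6 CPM (-0.19, edgeR adjusted p = 0.350). Smurf2, a ligase of the same family that targets the receptor with SMAD7, was at 208 ± 5.80 against 183 ± 18.2 CPM (-0.19, adjusted p = 0.425). It was -0.11 without PKM2ΔMAC mouse 3 and -0.25 without mouse 2 (adjusted p = 0.0525). The SMAD phosphatase Ppm1a was at 115 ± 1.63 against 108 ± 2.23 CPM (-0.09, adjusted p = 0.490). Its value was -0.013 on log2(TPM + 1) with limma-trend. The CPM of the genotypes did not overlap for 4 of the 17, beside 17.2% of all genes. These were Wwp1, Smurf2 and Ppm1a, lower in PKM2ΔMAC, and Strap, a SMAD7 partner at the receptor, at 97.2 ± 1.12 against 103 ± 4.44 CPM (0.08, adjusted p = 0.558), which was named after its values were seen. In TPM the genotypes overlapped for Wwp1, Smurf2 and Ppm1a, and did not for Strap.

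The list named TAK1 branch covers SMAD-independent signalling: the TAK1 kinase arm, and Rhoa with Rock1 beside it. Of 13 tested, 9 were above and 4 below 0, with 1 higher and 1 lower at an unadjusted p under 0.05. Mapk8, the JNK1 kinase, had a log2 fold change of 0.17 (edgeR adjusted p = 0.410). The ligase Traf6 was at -0.13 (adjusted p = 0.413), and at -0.055 on log2(TPM + 1) with limma-trend. Rock1 was at 0.09 (adjusted p = 0.508), and Rhoa, highest of the list at 192 TPM, at 0.0035.

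Among 24 TGF-β-induced targets 13 were above and 11 below 0, and 4 were higher and 1 lower at an unadjusted p under 0.05. Snai1, a transcriptional repressor, was at 8.95, 8.54 and 7.93 CPM against 10.2, 10.8 and 11.1 CPM (log2 fold change 0.34, SE 0.09, edgeR adjusted p = 0.246). The protease inhibitor Timp1 was at 77.3 ± 1.02 against 83.1 ± 1.29 CPM (0.11, adjusted p = 0.393). The cell cycle inhibitor Cdkn2b was at 7.92 ± 0.635 against 10.1 ± 1.37 CPM (0.36, adjusted p = 0.394). Ccn2, a matricellular growth factor gene, was at 519 ± 40.4 against 388 ± 75.8 CPM (-0.42, adjusted p = 0.449). Acta2, smooth muscle actin and highest of the list at 1521 TPM, was at 948, 967 and 899 CPM against 847, 1205 and 697 CPM (-0.03, adjusted p = 0.978). Pdgfb, a growth factor gene, was at 35.0, 34.2 and 34.5 CPM against 36.7, 58.6 and 64.0 CPM, with PKM2ΔMAC mouse 1 close to the controls (0.62, SE 0.21, edgeR adjusted p = 0.449), and DESeq2 called it (adjusted p = 0.0234). Ccn2 and Pdgfb were picked after their values were seen, and stromal cells express Ccn2 and Acta2 too.

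Among 14 tested genes that depend on TGF-β in tissue macrophages or microglia, 7 were above and 7 below 0, with 2 higher and 1 lower at an unadjusted p under 0.05. Gas6, the ligand that bridges dying cells to the receptor AXL, came nearest to the threshold of all 114 pathway genes. It was at 733, 861 and 749 CPM in PKM2FL/FL and at 574, 607 and 604 CPM in PKM2ΔMAC, so that all 3 PKM2ΔMAC libraries were below the controls. The log2 fold change was -0.39 (SE 0.06, edgeR adjusted p = 0.0528), and DESeq2 called it (adjusted p = 3.77e-05). Its receptor Axl, which lies 52.2 kb from Tgfb1, was at 332, 315 and 291 CPM against 367, 383 and 336 CPM (0.21, adjusted p = 0.332), with all PKM2ΔMAC libraries above the controls. Sparc, a matrix glycoprotein that stromal cells also make, was at 1032 ± 33.4 against 1150 ± 47.7 CPM (0.16, adjusted p = 0.344). Fcrls, highest of the list at 1236 TPM, was at 836 ± 24.4 against 771 ± 59.7 CPM (-0.12, adjusted p = 0.573; -0.06 without PKM2ΔMAC mouse 3).

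**Figure D5:**
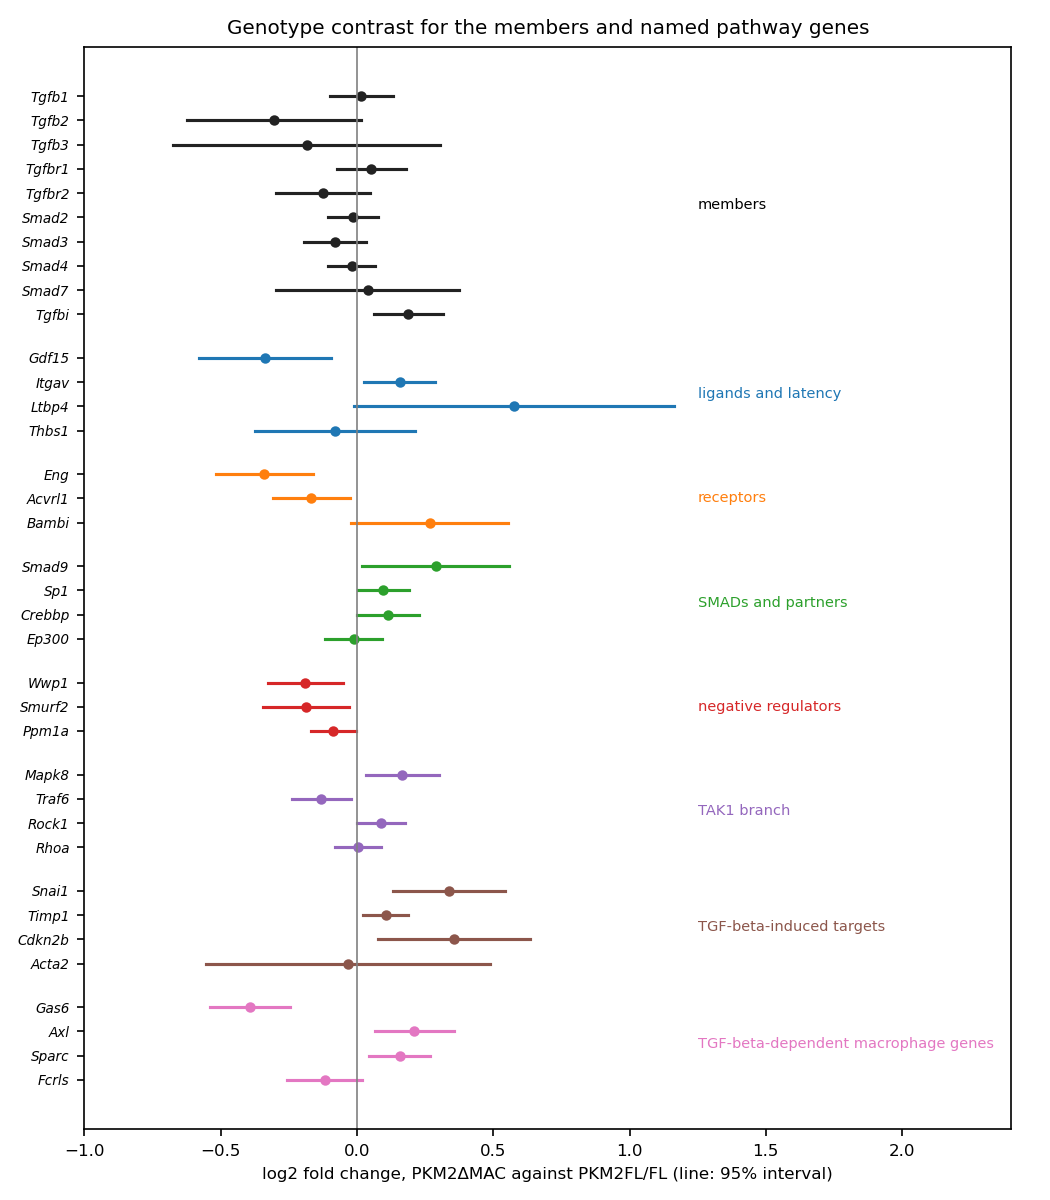
Log2 fold change (points) with 95% intervals (lines) for the 10 genes ("members") and the named genes of each pathway list. Among the 10 genes the intervals of Smad2 and Smad4 are the narrowest, that of Tgfb3 is the widest, and only that of Tgfbi leaves out 0.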

How the data were processed

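RNA-seq of 6 BMDM cultures was used. The tables deposited by the authors hold counts of reads on each gene symbol, not normalized, and TPM for the same symbols, from libraries prepared with a SMARTER RNA-seq kit according to the labels. The submitters' processing notes list FastQC 0.12.1, Trim Galore 0.6.10, HISAT2 2.2.1, SAMtools 1.19.2, Subread 2.0.6 and mm10, without saying which step each served, and whether counting used strand is not given in the sources used here. The paper's methods give tests of group means for its data in general, and name no tool for the genotype comparison of the RNA-seq counts. Columns were matched to libraries by genotype and mouse number, and 0 were left unmatched.

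Counts were analysed with edgeR 4.0.16 (R 4.3.3): filterByExpr on genotype (16516 of 23935 genes kept), TMM scaling, a robust quasi-likelihood test with genotype as the only term, and Benjamini-Hochberg adjustment over all genes tested, where an adjusted p under 0.05 is a call. CPM were scaled by TMM, and 95% intervals come from the same fit. Exact permutation tests were two-sided, on log2(CPM + 0.1) for single genes and on untransformed TPM ratios and percentages for the ratios and the ligand share. The fit was tested on simulated counts. Libraries held 49957449 to 54524651 counts, and the 10 genes 882 to 23002 each. The 16 alternatives were DESeq2 1.42.0, other scalings and filters, non-robust estimation, a replicate block, limma-trend (limma 3.58.1) on log2 TPM with a pseudocount of 1 or 0.1, and each library left out in turn.

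The 10 genes and the pathway and marker lists were chosen with earlier results of these data known. Of each pathway list, called genes, the 3 with the smallest p and the one with the highest TPM were named, and others are said to be chosen later. The LPS and IFN-γ genes and the leave-one-out of the receptor ratio were added after seeing the data. Values of some listed genes are not reported here. Gene positions are from GENCODE M21 on GRCm38.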

Additional observations from a re-analysis of the deposited data

How the results depend on the processing

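Under all 16 alternatives 0 of the 10 genes were called, and Tgfb2, Tgfb3, Tgfbr1, Tgfbr2, Smad3 and Tgfbi kept their direction. Over all genes 68 were called (47 higher, 21 lower), against 289 with DESeq2 (run on all genes with a count, with its own filter), 120 without a filter, 41, 34 and 36 with limma-trend on log2(TPM + 1), log2(TPM + 0.1) and log2(TPM + 1) without a filter, and 22 to 299 with a library left out (22 without PKM2FL/FL mouse 3, 26 without mouse 1, 27 without mouse 2 and 299 without PKM2ΔMAC mouse 2). The cause was not tested. Of the pathway genes 3 were called with DESeq2 (Eng, Gas6 and Pdgfb), 1 without a filter (Gas6), and 0 to 7 with a library left out, 1 of them without PKM2ΔMAC mouse 1 (Pdgfb) and 7 without mouse 2 (Cdkn1a, Col1a1, Eng, Gas6, Mmp14, Mmp9 and Sparc). In the replicate block 2 pathway genes were called, Eng (adjusted p = 0.0271) and Gas6 (adjusted p = 0.0220), and 82 genes in all. The labels number the mice of each genotype and do not say whether equal numbers are pairs. Between the deviations of mice of the same number the correlations were 0.0797, 0.141 and 0.0188. Of the 6 libraries 5 correlated best with their own number, and PKM2ΔMAC mouse 3 with PKM2FL/FL mouse 1. These values do not settle whether the mice are pairs, and the pairing was not used in the main fit.

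Leaving out a library in turn gave log2 fold changes of -0.014 to 0.055 for Tgfb1, -0.039 to 0.0013 for Smad2, -0.035 to 0.0064 for Smad4, -0.13 to 0.16 for Smad7, -0.21 to 0.012 for Thbs1, -0.046 to 0.013 for Ep300, -0.012 to 0.014 for Rhoa and -0.28 to 0.13 for Acta2. On log2(TPM + 1), with or without a filter, values turned to 0.055 for Smad2, 0.052 for Smad4, 0.059 for Ep300 and 0.0019 for Acta2, and on log2(TPM + 0.1) to 0.056, 0.053, 0.060 and 0.0019. There the median of all genes was at 0.05 to 0.07, and 6 of the 10 genes were above 0. On log2(TPM + 1) values were -0.057 for Tgfbr2, -0.092 for Acvrl1, -0.11 for Wwp1 and -0.12 for Smurf2. Among genes above 0 they were 0.12 for Tgfbr1, 0.17 for Sp1, 0.17 for Crebbp and 0.15 for Rock1. With a library left out, a group of 2 mice is assumed to vary like the other. Each of the 10 genes had at least 882 counts in every library. With 3 mice a genotype, the data cannot resolve changes inside the intervals given.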
